A study of Mus musculus with 12 samples.

Results

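The genes described here were 10 members of the tumour necrosis factor (TNF) and interleukin-1 (IL-1) cytokine systems in BV2 cells, an immortalised mouse microglial line. They were chosen by name and role, with earlier results of these data known. Counts of members that passed therefore only describe this list beside the shares of all genes. All 10 were found among the 21834 genes of the deposited count table. The list held the ligands Tnf, Tnfsf9, Il1a, Il1b and Il18, the TNF receptors Tnfrsf1a and Tnfrsf1b, the IL-1 co-receptor Il1rap, and the secreted inhibitors Il1rn and Il18bp. The study knocked down Anxa2, which encodes the membrane-binding protein annexin A2, and deprived the cells of oxygen and glucose before returning both (OGD/R), a culture model of ischaemia followed by reperfusion. The 12 RNA-seq libraries formed 4 groups of 3: control-hairpin cells left untreated (shCtrl-CTRL), control-hairpin cells after OGD/R (shCtrl-OGDR), Anxa2-knockdown cells left untreated (shAnxa2-CTRL) and Anxa2-knockdown cells after OGD/R (shAnxa2-OGDR). All 4 groups carried a stably integrated lentiviral hairpin after an earlier puromycin selection, and the knockdown line rested on 1 hairpin sequence. The labels gave 4 h of deprivation and 12 h of reoxygenation, whereas the study's methods for the cells gave a longer reoxygenation. Groups were taken from the sample titles, because the genotype tags in the labels followed the treatment and contradicted the titles.

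TNF is made as a membrane protein on macrophages and microglia and is cut from the surface, and it signals through Tnfrsf1a, present on most cells, and Tnfrsf1b, prominent on immune cells. IL-1α and IL-1β are separate ligands of the same receptor, which needs the co-receptor encoded by Il1rap, and the antagonist encoded by Il1rn occupies that receptor without signalling. IL-18 is a related cytokine that is matured by inflammasome caspases, as IL-1β is, and it is neutralised in the extracellular space by the protein encoded by Il18bp. In microglia these cytokines are known as early products of the inflammatory response to injury.

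Total counts per library ran from 19521877 to 27288843, with a median of 24531756. Anxa2 was at 172 ± 6.36 CPM (SD, n = 3; counts per 1000000 reads assigned to genes, after TMM scaling) in shCtrl-CTRL, 279 ± 24.3 in shCtrl-OGDR, 40.4 ± 4.86 in shAnxa2-CTRL and 19.6 ± 1.26 in shAnxa2-OGDR, so every library of the knockdown line lay below every control-hairpin library. Over all tested genes, libraries of the same group differed by a mean of 0.252 to 0.280 log2 units (root mean square of log2(CPM + 0.1)). The nearest groups of different label were shCtrl-CTRL and shAnxa2-OGDR, at 0.416, and shCtrl-OGDR and shAnxa2-CTRL, at 0.453, against 0.584 between the treatments in shCtrl and 0.496 in shAnxa2. Of the 5239 genes that passed the test for OGD/R in both lines, 5165 (98.6%) moved in opposite directions, although these 2 comparisons share no library. Treatment labels were used as given, and whether those of 1 line had been exchanged was not tested. If they had, every OGD/R change in that line would have the opposite sign and the interaction would take other values. The lines within a treatment would then be compared by the pairs shAnxa2-CTRL with shCtrl-OGDR and shAnxa2-OGDR with shCtrl-CTRL. For these pairs the genes that passed, and the fold changes of Tnf, Il1a and Il1b, are given below. The directions below hold for the labels as given. All 14 microglial markers examined were tested, although C1qa, P2ry12, Cx3cr1 and Aif1 stayed below 7 CPM in every library. The sum of the 14 was 2243 to 2362 CPM in shCtrl-CTRL and 2320 to 2454 in shCtrl-OGDR. It was 1958 to 2060 CPM in shAnxa2-CTRL and 2036 to 2080 in shAnxa2-OGDR, below every control-hairpin library. Single markers went both ways between the lines. In CTRL 2 of the 14 were higher and 8 lower in shAnxa2 (adjusted p under 0.05), where 59.2% of all tested genes passed. In OGDR 4 were higher and 8 lower, where 67.9% passed. Astrocyte markers summed to at most 0.970 CPM, with Aqp4 at 0, neuronal markers to at most 1.33 CPM, with Snap25 and Syt1 at 0, and oligodendrocyte markers to at most 6.71 CPM, with Mog at 0. The list of 5 endothelial markers also moved with the groups, and 3 of the 5 were tested. Its sum was 167 to 171 CPM in shCtrl-CTRL, 61.3 to 68.1 in shCtrl-OGDR, 116 to 124 in shAnxa2-CTRL and 227 to 228 in shAnxa2-OGDR. Nearly all of it was Kdr, while Cldn5, Cdh5, Pecam1 and Tek each stayed at or below 1.89 CPM in every library. The part of this list in the results below was not tested.

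The sequences shown are the 250 bases before the annotated start of Tnf, Il1a and Il1b, the genes with the largest fold changes of the 10. Il1a and Il1b moved in opposite directions after OGD/R in control-hairpin cells and between the lines after OGD/R, but both were higher in the knockdown line in untreated cells. They come from RefSeq on GRCm38.p6, read 5′ to 3′ on the gene's strand, with capitals marking a match to the AP-1 motif TGANTCA.
Tnf, chr17:35202008-35202257, minus strand: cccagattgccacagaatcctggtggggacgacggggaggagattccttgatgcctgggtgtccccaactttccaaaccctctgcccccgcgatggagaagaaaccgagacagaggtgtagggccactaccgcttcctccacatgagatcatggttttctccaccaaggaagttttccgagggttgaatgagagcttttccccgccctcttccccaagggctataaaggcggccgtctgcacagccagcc
Il1a, chr2:129309973-129310222, minus strand: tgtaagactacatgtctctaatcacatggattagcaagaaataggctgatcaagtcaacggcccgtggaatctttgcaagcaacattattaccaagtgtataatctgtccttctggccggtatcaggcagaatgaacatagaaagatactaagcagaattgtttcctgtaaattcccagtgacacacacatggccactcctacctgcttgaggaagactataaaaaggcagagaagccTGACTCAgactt
Il1b, chr2:129371140-129371389, minus strand: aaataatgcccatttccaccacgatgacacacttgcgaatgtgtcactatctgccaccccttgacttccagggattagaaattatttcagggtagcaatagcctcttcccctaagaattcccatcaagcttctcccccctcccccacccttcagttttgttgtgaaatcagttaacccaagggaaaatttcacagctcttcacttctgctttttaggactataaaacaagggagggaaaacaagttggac
Promoter entries were found for 9 of the 10 genes. The only AP-1 matches, searched on both strands, were TGACTCA in Il1a, 12 to 6 bases before its start, and TGAGTCA in Il1rn, 141 to 135 bases before the first of its 3 listed starts. Of 32851 mouse promoter windows of the same length, 6.75% held the AP-1 motif. No window of a member matched the NF-kB consensus, held by 7.25% of all windows, or the cyclic AMP response element TGACGTCA, held by 1.55%. A match here describes letters and not a bound site. The lack of a match covers only these windows and these patterns, and sites further away or with other letters were not searched.

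Il1a and Il1b lie side by side on mouse chromosome 2, Il1a at chr2:129141530-129151892 and Il1b at chr2:129206490-129213059 on the minus strand (mm39, as deposited), with 54597 bases between them. Tnf lies at chr17:35418357-35420983, 1157 bases from Lta, which had 1 to 14 counts per library. Il18 overlapped Tex12 and Bco2 on the opposite strand, which reached at most 12.8 CPM, against at most 5.54 CPM for Il18. Il18bp overlapped Numa1 on the opposite strand, a gene that reached 362 CPM. Whether the counting used strand is not given in the sources used here. Reads of Il18 or Il18bp may therefore not have been told apart from those of the overlapping genes.

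Levels were compared between genes as CPM per kilobase of annotated exon. Tnfrsf1b, the receptor prominent on immune cells, was the highest of the 10 genes in all 4 groups, at 84.9 ± 4.74 in shCtrl-CTRL, 138 ± 3.72 in shCtrl-OGDR, 155.5 ± 3.05 in shAnxa2-CTRL and 120.4 ± 4.22 in shAnxa2-OGDR (CPM per kb, SD, n = 3). Tnf and Tnfrsf1a followed, with Tnfrsf1a above Tnf in both shCtrl groups and Tnf above Tnfrsf1a in both shAnxa2 groups. The other 7 genes lay between 0.579 and 10.4 CPM per kb, and Il1b moved from the tenth place in shCtrl-OGDR to the sixth in shAnxa2-OGDR (the ninth and the sixth with the length of the longest coding transcript). All 10 genes reached at least 0.5 CPM in every library, so none entered the test through 1 group alone. The lowest count of any member was 21, for Il1b in a shCtrl-OGDR library.

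**Figure D1:**
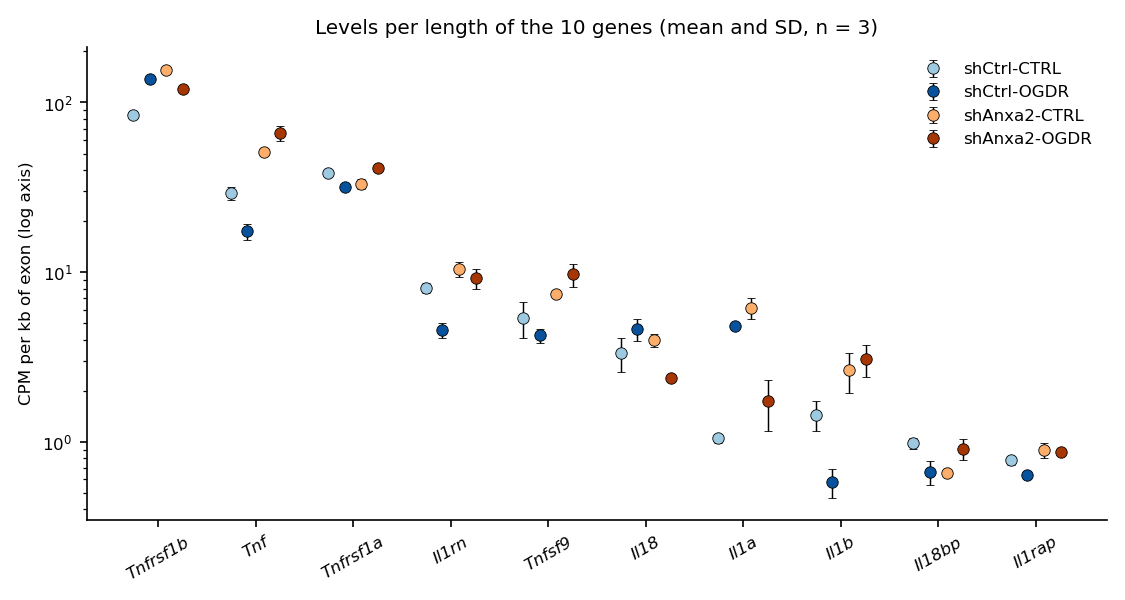
Mean level of each gene in CPM per kilobase of exon on a log axis, with the SD of 3 libraries as bars and 1 colour per group. Tnfrsf1b is highest in all 4 groups, Tnf and Tnfrsf1a follow, and Il1a and Il1b change rank between the groups.

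The first comparison asked how OGD/R changed these messages in control-hairpin cells. All 10 genes passed the test (adjusted p under 0.05, edgeR quasi-likelihood test), with OGD/R raising 3 and lowering 7, in a comparison where 63.4% of the 11626 tested genes passed, 32.4% upward and 31.0% downward. The libraries of the groups did not overlap for 9 of the 10 genes and for 68.0% of all genes. Il1a, Tnfrsf1b and Il18 rose. Tnf, Il1b, Il1rn, Tnfrsf1a, Il18bp, Tnfsf9 and Il1rap fell. The median log2 fold change of the 10 genes was -0.32, against 0.00 for all tested genes. A log2 fold change of at least 1 with an unadjusted p under 0.05 was reached by Il1a and Il1b, 2 of 10 genes, and by 6.86% of all genes.

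The second comparison asked the same of Anxa2-knockdown cells. Here 7 of the 10 genes passed, with 4 higher and 3 lower, where 55.0% of all tested genes passed, 28.2% upward and 26.8% downward. The groups did not overlap for 7 genes and for 58.9% of all genes, and Il1a was the 1 gene to reach a log2 change of at least 1, as 3.80% of all genes did. Tnf, Tnfrsf1a, Il18bp and Tnfsf9 rose after OGD/R, and Il1a, Tnfrsf1b and Il18 fell. The fold changes of Il1b, Il1rn and Il1rap did not pass, at 0.23 (95% interval -0.16 to 0.62), -0.18 (-0.36 to 0.0025) and -0.05 (-0.27 to 0.17) on the log2 scale. Each of these 7 genes had also passed in control-hairpin cells, in the opposite direction. The same held for 80.8% of the 6392 genes that passed here, and for 98.6% of those that passed in both lines. The reversal was therefore general to the series under the labels as given. The difference between the lines was tested directly, as given below.

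The next comparisons set the lines against each other. In untreated cells 8 of the 10 genes passed, with 6 higher and 2 lower in shAnxa2, where 59.2% of all genes passed, 29.5% upward and 29.7% downward. The groups did not overlap for 8 genes and for 63.6% of all genes. Tnf, Tnfrsf1b, Il1a, Il1b, Il1rn and Tnfsf9 were higher, and Tnfrsf1a and Il18bp were lower. After OGD/R all 10 passed, with 7 higher and 3 lower in shAnxa2, where 67.9% of all genes passed, 33.8% upward and 34.2% downward. The groups were apart for all 10 genes and for 69.9% of all genes. The 3 lower genes were Il1a, Il18 and Tnfrsf1b. A log2 fold change of at least 1 was reached in 5 of 10 genes after OGD/R (Tnf, Il1a, Il1b, Il1rn and Tnfsf9) and in 10.2% of all genes, while before treatment it was reached in Il1a alone and in 5.81% of all genes.

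The interaction term, the log2 change after OGD/R in shAnxa2 minus that in shCtrl, passed in 9 of the 10 genes, where 70.0% of all genes passed, 34.9% with a positive and 35.1% with a negative term. It was at least 1 in size for 6 of the 10 genes and for 21.7% of all genes. It was positive for Tnf, Il1b, Il18bp, Tnfsf9, Il1rn and Tnfrsf1a, from 0.57 to 1.53, and negative for Tnfrsf1b, Il18 and Il1a, from -1.07 to -4.01. Il1rap was at 0.24 (SE 0.15), adjusted p = 0.158. The groups that lay nearest to each other over all genes still differed in these messages. Between shAnxa2-CTRL and shCtrl-OGDR 7 of the 10 passed, where 44.1% of all genes passed, 22.1% upward and 22.0% downward. They were Tnf, Tnfrsf1b, Il1a, Il1b, Il1rn, Tnfsf9 and Il1rap, all of them higher in shAnxa2-CTRL. Between shAnxa2-OGDR and shCtrl-CTRL 6 passed, where 39.9% of all genes passed, 21.5% upward and 18.4% downward. Tnf, Tnfrsf1b, Il1a, Il1b and Tnfsf9 were higher and Il18 was lower in shAnxa2-OGDR. For Il18 the adjusted p was 0.0493 and the libraries overlapped. Tnf was 2.93-fold higher in shAnxa2-CTRL than in shCtrl-OGDR (log2 1.55, SE 0.08, adjusted p = 2.36e-13) and 2.26-fold higher in shAnxa2-OGDR than in shCtrl-CTRL (log2 1.18, SE 0.08, adjusted p = 1.75e-11). Il1a was 1.28-fold higher in shAnxa2-CTRL than in shCtrl-OGDR (log2 0.35, SE 0.14, adjusted p = 0.0420). It was 1.65-fold higher in shAnxa2-OGDR than in shCtrl-CTRL (log2 0.72, SE 0.20, adjusted p = 0.00592). Il1b was 4.49-fold higher in the former pair (log2 2.17, SE 0.24, adjusted p = 1.31e-07). In the latter pair it was 2.12-fold higher (log2 1.09, SE 0.20, adjusted p = 0.000138). How the calls in these pairs depend on the processing was not examined. The comparisons share libraries, so their values are side by side and not independent of each other.

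**Figure D2:**
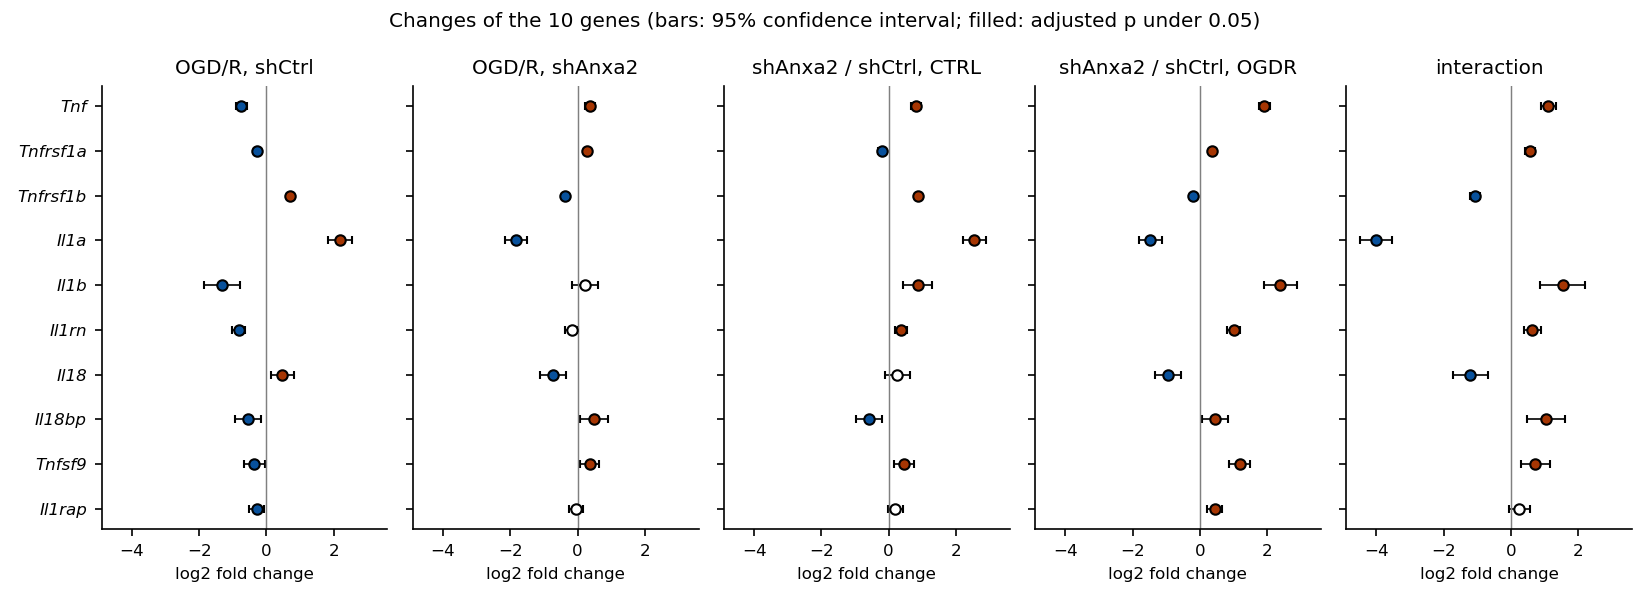
Log2 fold change of the 10 genes in each of the 4 comparisons and the interaction, with 95% confidence intervals, filled where the adjusted p was under 0.05. Il1a is 2.19 in the shCtrl panel and -1.82 in the shAnxa2 panel, and its interaction of -4.01 is the largest in size of the 10.

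Tnf, the founding ligand of the family, was at 44.5, 52.5 and 46.1 CPM in the shCtrl-CTRL libraries and at 25.2, 31.5 and 28.9 CPM after OGD/R. It was at 81.7, 80.6 and 88.6 CPM in shAnxa2-CTRL and at 119, 107 and 98.1 CPM in shAnxa2-OGDR. The 4 groups did not overlap, and every neighbour in the order shAnxa2-OGDR, shAnxa2-CTRL, shCtrl-CTRL, shCtrl-OGDR differed. OGD/R lowered Tnf 1.67-fold in control-hairpin cells (log2 -0.74, SE 0.08, adjusted p = 2.47e-08) and raised it 1.29-fold in knockdown cells (log2 0.37, SE 0.07, adjusted p = 0.000165). After OGD/R, Tnf was 3.78-fold higher in shAnxa2 than in shCtrl (log2 1.92, SE 0.08, adjusted p = 6.13e-16), and in untreated cells 1.75-fold higher (log2 0.81, adjusted p = 2.50e-09). The study reported other directions for TNF-α and IL-1β, from PCR of mRNA and immunoassay of the medium. There both rose after OGD/R in control-hairpin cells, and the knockdown attenuated the rise. The study's methods gave a longer reoxygenation for the cells than the 12 h in the labels of these libraries. Why the study's directions differ from those of Tnf and Il1b here was not tested.

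The receptors of TNF moved against each other. Tnfrsf1b was at 344, 318 and 309 CPM in shCtrl-CTRL, 536, 534 and 510.5 in shCtrl-OGDR, 607, 590.4 and 584 in shAnxa2-CTRL and 478, 448 and 453 in shAnxa2-OGDR. It rose 1.63-fold after OGD/R in control-hairpin cells (log2 0.70, SE 0.05, adjusted p = 8.43e-12) and fell 1.29-fold in knockdown cells (log2 -0.37, SE 0.05, adjusted p = 7.30e-07). Tnfrsf1a, the death-domain receptor, was at 99.4, 101 and 98.4 CPM in shCtrl-CTRL, 85.2, 80.1 and 81.2 in shCtrl-OGDR, 86.8, 80.3 and 91.6 in shAnxa2-CTRL and 105, 105 and 108 in shAnxa2-OGDR. Its changes were smaller, a 1.21-fold fall in control-hairpin cells (adjusted p = 4.31e-05) and a 1.23-fold rise in knockdown cells (adjusted p = 2.69e-05). Within a library, the ratio of Tnfrsf1b to Tnfrsf1a counts was 3.26 ± 0.178 in shCtrl-CTRL, 6.41 ± 0.215 in shCtrl-OGDR, 6.91 ± 0.491 in shAnxa2-CTRL and 4.34 ± 0.206 in shAnxa2-OGDR. The ratio did not overlap between treatments in either line, and an exact two-sided permutation test of 3 against 3 gave p = 0.1, the smallest it allows. A ratio of counts depends on the lengths of both genes, so only its movement between groups is read here.

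Tnfsf9 encodes the ligand of the costimulatory receptor Tnfrsf9. It was at 5.18, 7.11 and 8.56 CPM in shCtrl-CTRL, 4.89, 5.88 and 5.64 in shCtrl-OGDR, 9.29, 9.82 and 9.77 in shAnxa2-CTRL and 14.2, 10.5 and 12.8 in shAnxa2-OGDR. The shCtrl groups overlapped, and the fall of 0.36 on the log2 scale after OGD/R (adjusted p = 0.0474) passed in 7 of 19 other settings. It was lost without shCtrl-CTRL replicate 2 or 3, shCtrl-OGDR replicate 1 or 3, any shAnxa2-CTRL replicate or shAnxa2-OGDR replicate 3, at -0.17 without shCtrl-CTRL replicate 3 and -0.27 to -0.37 without the others. The call was also lost with limma voom (adjusted p = 0.0831), a filter of 1 CPM (0.0528), a replicate block (0.0564) and only the 2 groups compared (0.0564). Its rise in knockdown cells (log2 0.37, adjusted p = 0.0275) was lost without shAnxa2-OGDR replicate 1, at 0.27, and without shAnxa2-OGDR replicate 3 or shAnxa2-CTRL replicate 1 or 3 (0.34 to 0.38). In untreated cells it was higher in shAnxa2 (log2 0.46, adjusted p = 0.00802), a call lost without shCtrl-CTRL replicate 1 (0.29). After OGD/R it was 2.27-fold higher in shAnxa2 than in shCtrl (log2 1.19, SE 0.15, adjusted p = 1.44e-07). Its receptor Tnfrsf9 was ordered differently, at 8.36 to 10.7 CPM in shCtrl-CTRL, 20.0 to 23.7 in shCtrl-OGDR, 25.9 to 29.7 in shAnxa2-CTRL and 15.8 to 16.5 in shAnxa2-OGDR.

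**Figure D3:**
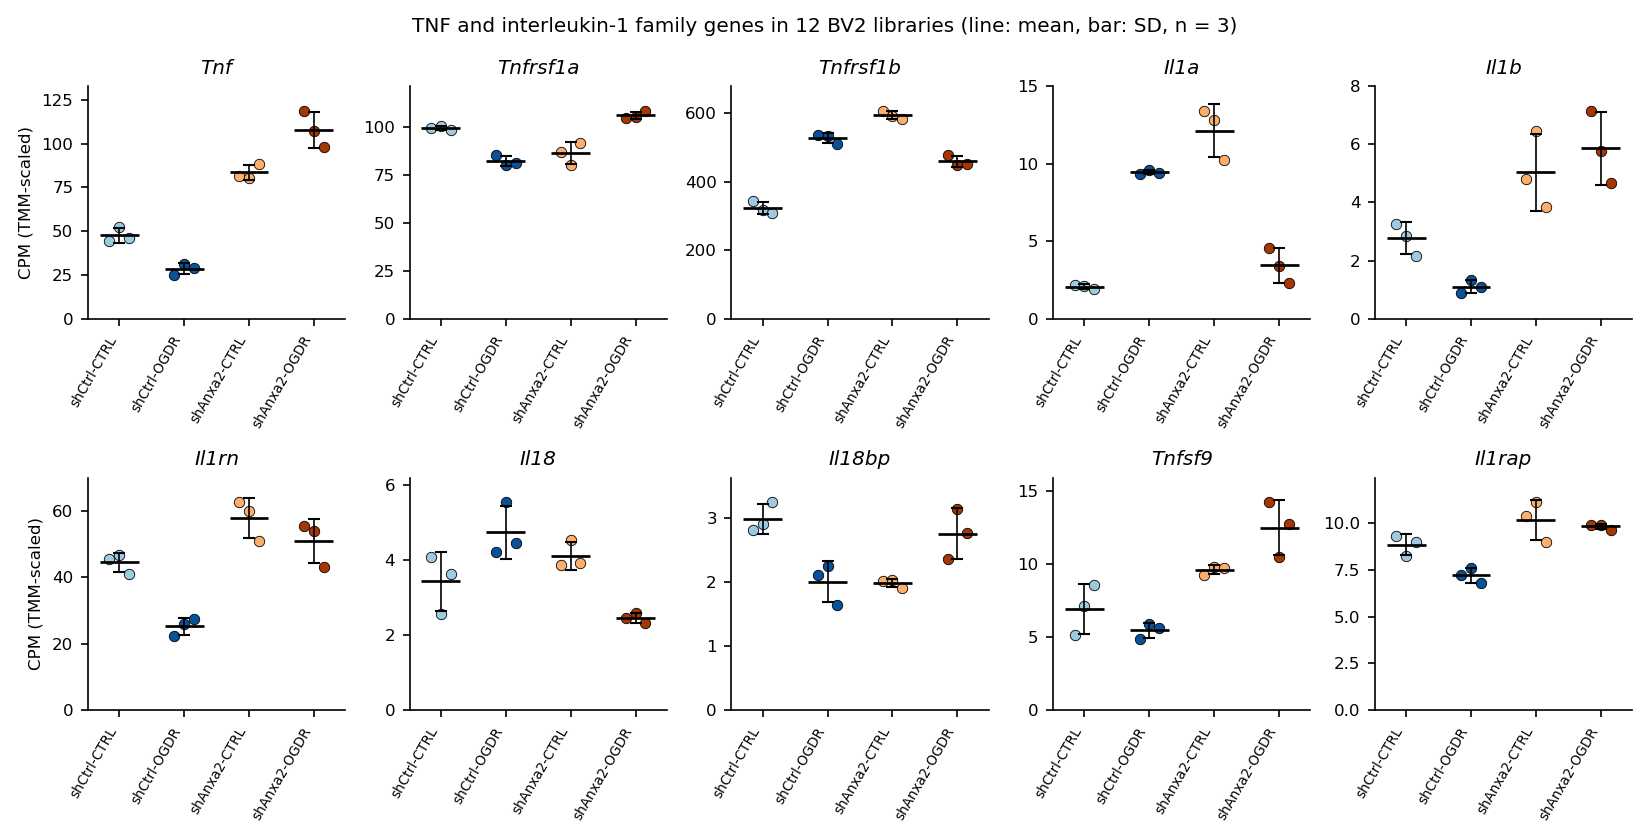
CPM of each gene in the 12 libraries on linear axes from 0, with points for libraries, a line for the mean and bars for the SD of each group of 3. By group mean, Tnf, Il1b and Tnfsf9 are highest in shAnxa2-OGDR and lowest in shCtrl-OGDR, while Il1a, Il18 and Tnfrsf1b are higher in shCtrl-OGDR than in shAnxa2-OGDR.

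Il1a moved more than any other member between treatments. It was at 2.17, 2.13 and 1.91 CPM in shCtrl-CTRL and at 9.35, 9.62 and 9.43 CPM in shCtrl-OGDR. It was at 13.4, 12.8 and 10.2 CPM in shAnxa2-CTRL and at 4.59, 3.38 and 2.33 CPM in shAnxa2-OGDR. No groups overlapped. Il1a rose 4.57-fold after OGD/R in control-hairpin cells (log2 2.19, SE 0.17, adjusted p = 7.60e-11) and fell 3.53-fold in knockdown cells (log2 -1.82, SE 0.16, adjusted p = 1.64e-09). In untreated cells it was 5.84-fold higher in shAnxa2 than in shCtrl (log2 2.55, SE 0.17, adjusted p = 6.03e-12), and after OGD/R it was 2.77-fold lower (log2 -1.47, SE 0.16, adjusted p = 2.38e-08).

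Il1b, the neighbour of Il1a, followed another order. It was at 3.26, 2.86 and 2.17 CPM in shCtrl-CTRL, 0.900, 1.34 and 1.08 in shCtrl-OGDR, 4.79, 6.45 and 3.85 in shAnxa2-CTRL and 7.14, 5.76 and 4.66 in shAnxa2-OGDR. The shAnxa2 groups overlapped each other and lay above every shCtrl library. These are low levels, from 21 to 145 counts. Il1b fell 2.48-fold after OGD/R in control-hairpin cells (log2 -1.31, SE 0.26, adjusted p = 0.000117). After OGD/R it was 5.25-fold higher in shAnxa2 than in shCtrl (log2 2.39, SE 0.24, adjusted p = 3.47e-09), and before it 1.81-fold higher (log2 0.86, SE 0.20, adjusted p = 0.000868). The within-library ratio of Il1a to Il1b counts was therefore 0.764 ± 0.109 in shCtrl-CTRL, 8.78 ± 1.60 in shCtrl-OGDR, 2.48 ± 0.432 in shAnxa2-CTRL and 0.576 ± 0.0719 in shAnxa2-OGDR. The ratio was 11.5-fold higher after OGD/R in control-hairpin cells and 4.30-fold lower in knockdown cells, with no overlap of libraries (exact two-sided permutation p = 0.1 for each, the smallest possible).

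**Figure D4:**
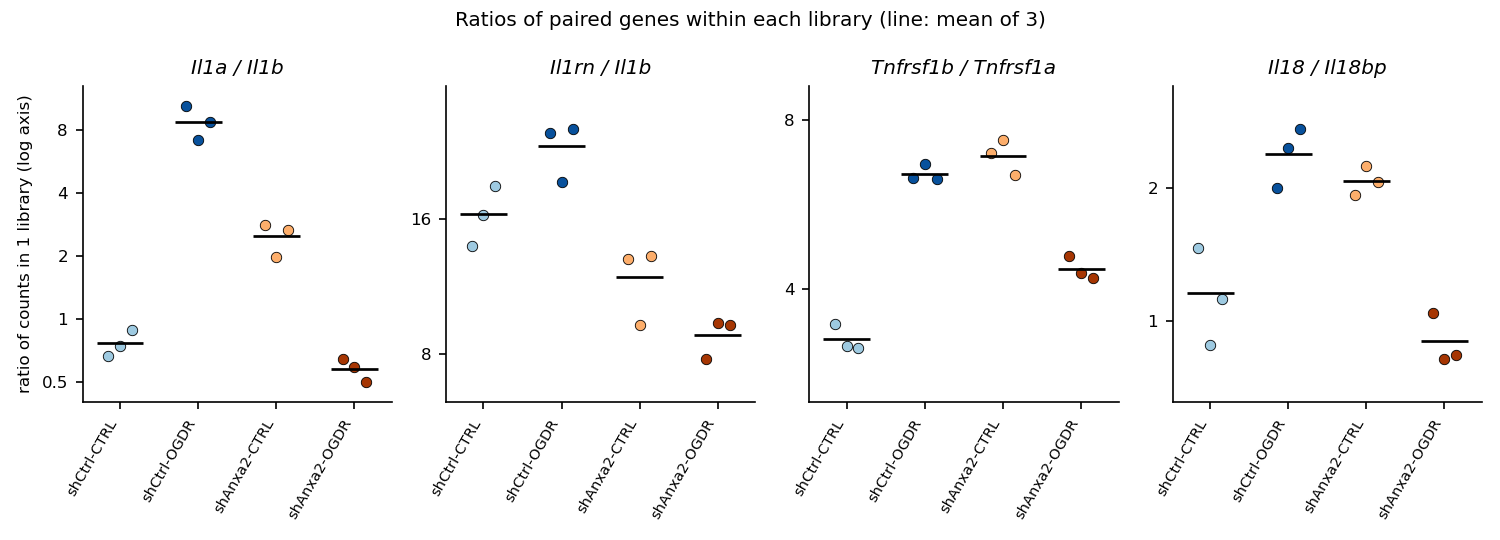
Ratio of the counts of paired genes in each library on log axes, with points for libraries and a line for the mean of 3. Il1a to Il1b runs from 0.576 to 8.78 between group means, and Tnfrsf1b to Tnfrsf1a and Il18 to Il18bp are highest in shCtrl-OGDR or shAnxa2-CTRL.

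Il1rn, the receptor antagonist, was at 45.5, 46.9 and 41.1 CPM in shCtrl-CTRL, 22.5, 26.0 and 27.4 in shCtrl-OGDR, 62.6, 59.9 and 51.0 in shAnxa2-CTRL and 55.6, 54.0 and 43.2 in shAnxa2-OGDR. The shCtrl-OGDR libraries were the lowest of all, without overlap. It fell 1.76-fold after OGD/R in control-hairpin cells (log2 -0.82, SE 0.09, adjusted p = 4.29e-08) and was 2.02-fold higher in shAnxa2 than in shCtrl after OGD/R (log2 1.02, SE 0.09, adjusted p = 8.50e-10). In knockdown cells its log2 change of -0.18 had an adjusted p of 0.0885, and it passed with no filter on low counts (-0.21, adjusted p = 0.00596), without shAnxa2-CTRL replicate 3 (-0.26) and without shAnxa2-OGDR replicate 1 (-0.24). The ratio of Il1rn to Il1b counts was highest in shCtrl-OGDR, at 23.3 ± 3.36, and its mean was lowest in shAnxa2-OGDR, at 8.82 ± 0.893, where the libraries overlapped those of shAnxa2-CTRL, at 11.9 ± 2.23 (exact two-sided permutation p = 0.2). Il1rap, the co-receptor, stayed between 6.81 and 11.1 CPM in all 12 libraries. It fell by 0.29 on the log2 scale in control-hairpin cells (SE 0.11, adjusted p = 0.0239), a call lost on leaving out any of 4 of the 6 shCtrl libraries (adjusted p 0.0589 to 0.0784, without shCtrl-CTRL replicate 1 or 3 or shCtrl-OGDR replicate 1 or 3). After OGD/R it was 1.36-fold higher in shAnxa2 (log2 0.44, adjusted p = 0.00108). In untreated cells the difference between lines was 0.20 (adjusted p = 0.111) and passed without shAnxa2-CTRL replicate 3 (0.28). Its partner Il1r1, which binds the ligand, had 6 to 24 counts per library.

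Il18 and its inhibitor Il18bp moved in opposite directions. Il18 was at 4.09, 2.57 and 3.64 CPM in shCtrl-CTRL, 4.22, 5.54 and 4.46 in shCtrl-OGDR, 3.86, 4.52 and 3.93 in shAnxa2-CTRL and 2.45, 2.58 and 2.33 in shAnxa2-OGDR. It was 1.93-fold lower in shAnxa2 than in shCtrl after OGD/R (log2 -0.95, SE 0.18, adjusted p = 6.94e-05) and fell 1.67-fold after OGD/R in knockdown cells (log2 -0.74, adjusted p = 0.00192). Its rise in control-hairpin cells (log2 0.48, adjusted p = 0.0168) was lost without shCtrl-CTRL replicate 2 (0.31) or shCtrl-OGDR replicate 2 (0.34). Il18bp was at 2.80, 2.90 and 3.23 CPM in shCtrl-CTRL, 2.11, 2.25 and 1.64 in shCtrl-OGDR, 2.005, 2.02 and 1.91 in shAnxa2-CTRL and 2.35, 3.14 and 2.76 in shAnxa2-OGDR. It fell by 0.56 on the log2 scale after OGD/R in control-hairpin cells (adjusted p = 0.0116), a call lost without shCtrl-CTRL replicate 3 (-0.48) or shCtrl-OGDR replicate 3 (-0.45). Its rise in knockdown cells (log2 0.49, adjusted p = 0.0383) and its higher level in shAnxa2 than in shCtrl after OGD/R (log2 0.45, adjusted p = 0.0415) passed in 10 and 9 of 19 other settings. The former was lost without any shAnxa2-CTRL replicate or shAnxa2-OGDR replicate 2 or 3 (0.37 to 0.50), and the latter without shCtrl-CTRL replicate 2 or 3, shCtrl-OGDR replicate 1 or 3 or shAnxa2-OGDR replicate 2 or 3 (0.33 to 0.48). Both calls were also lost with limma voom (adjusted p = 0.0552 and 0.0549) and DESeq2 (adjusted p = 0.0673 and 0.0664). The same held with no filter on low counts (0.0751 and 0.0715) and with only the 2 groups compared (0.0604 and 0.0587). The ratio of Il18 to Il18bp counts was 1.16 ± 0.290 in shCtrl-CTRL, 2.39 ± 0.364 in shCtrl-OGDR, 2.08 ± 0.156 in shAnxa2-CTRL and 0.903 ± 0.122 in shAnxa2-OGDR. Both genes overlap others on the opposite strand, so this ratio carries the limit given above. Il18r1, the receptor chain for IL-18, had 0 to 4 counts per library.

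The genes most like Tnf over the 12 libraries, by root mean square difference of centred log2(CPM + 0.1) among 10504 genes, were Marcksl1 (0.163), Raet1d (0.182), Lats2 (0.214), Upp1 (0.253) and Ets2 (0.260). Il1b ranked 15, Tnfsf9 25 and Il1rn 59 in that order. For Il1b the nearest were Pilrb1 (0.223) and Pilrb2 (0.292), close paralogs whose counts may be shared, then Tnf (0.314), Ccl2 (0.349) and Serpinb9b (0.377). For Il1a they were Cp (0.302), Aoah (0.304), Mturn (0.314), Echdc3 (0.320) and Ccrl2 (0.321), while Il1b ranked 10374. These are likenesses over libraries that share their groups and carry no test.

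Other members of the TNF system were taken from lists. Their counts are to be read against the shares of all genes given above, 63.4% for OGD/R in shCtrl, 55.0% in shAnxa2, 59.2% between lines in CTRL and 67.9% in OGDR. In that order the ligands passed at 42.9%, 28.6%, 57.1% and 42.9%, the receptors at 76.5%, 70.6%, 70.6% and 76.5%, and the genes of release and signalling at 81.0%, 57.1%, 71.4% and 76.2%, on 7, 17 and 21 genes. Of 16 other TNF superfamily ligands 7 were tested, and after OGD/R 2 rose and 1 fell in shCtrl, while 0 rose and 2 fell in shAnxa2. Between lines 4 were higher and 0 lower in CTRL, and 3 and 0 in OGDR. Tnfsf14, the ligand LIGHT, fell by 1.06 on the log2 scale after OGD/R in shCtrl (adjusted p = 0.00339). Its group means were low, at 1.43 CPM in shCtrl-CTRL and 0.698 in shCtrl-OGDR. Tnfsf15, the ligand TL1A, was at 0.665, 2.13, 4.81 and 2.84 CPM over shCtrl-CTRL, shCtrl-OGDR, shAnxa2-CTRL and shAnxa2-OGDR (group means). Of 26 other TNF receptors 17 were tested, and 6 rose and 7 fell after OGD/R in shCtrl, with 6 and 6 in shAnxa2. Between lines 7 were higher and 5 lower in CTRL, and 6 and 7 in OGDR. In shAnxa2, Tnfrsf21 rose by 0.62 on the log2 scale (adjusted p = 0.000577) and Tnfrsf8, or CD30, fell by 1.05 (adjusted p = 6.51e-06). Tnfrsf11a, or RANK, was lower in untreated shAnxa2 cells (log2 -0.96, adjusted p = 4.36e-10). Fas, a death receptor, rose by 1.93 on the log2 scale in shCtrl (SE 0.20, adjusted p = 1.45e-08), and Tnfrsf22 fell by 0.94 (adjusted p = 4.12e-08). Tnfrsf14, a receptor of LIGHT, was 2.04 lower on the log2 scale in shAnxa2 than in shCtrl after OGD/R (log2 -2.04, adjusted p = 3.40e-12) and Tnfrsf12a was 1.204 higher (adjusted p = 6.18e-10). All 21 genes of TNF release and receptor signalling were tested, of which 13 rose and 4 fell in shCtrl, and 4 rose and 8 fell in shAnxa2. Between lines 10 were higher and 5 lower in CTRL, and 7 and 9 in OGDR. Fadd, the death-domain adaptor, fell by 0.29 in shCtrl and rose by 0.30 in shAnxa2 on the log2 scale. Traf1, an adaptor of TNF receptors, rose by 1.65 in shCtrl and fell by 1.04 in shAnxa2 on the log2 scale. Birc3, a ubiquitin ligase of the receptor complex, was at 28.7, 66.4, 59.2 and 35.7 CPM in the same group order, and Zfp36, which destabilises Tnf mRNA, was at 22.0, 18.7, 10.5 and 11.8 CPM.

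On the IL-1 side those that passed, against the same shares of all genes, were 3, 3, 2 and 4 of 6 ligands and receptors, 66.7%, 66.7%, 73.3% and 80.0% of 15 signalling genes, and 55.6%, 55.6%, 66.7% and 77.8% of 9 maturation genes. With OGD/R in shCtrl, signalling and maturation lay near the share of all genes. Of the ligands and receptors, 6 of 13 others were tested, of which OGD/R raised 0 and lowered 3 in shCtrl, with 1 higher and 2 lower in shAnxa2. Between lines 1 was higher and 1 lower in CTRL, and 3 and 1 in OGDR. Il1rl1, the IL-33 receptor, was at 24.6, 9.45, 10.4 and 19.0 CPM in the same group order, and the decoy receptor Il1r2 was at 0.907, 0.616, 2.36 and 1.41 CPM. Of 16 genes of IL-1 receptor signalling 15 were tested, with 7 higher and 3 lower in shCtrl and 4 higher and 6 lower in shAnxa2. Between lines 5 were higher and 6 lower in CTRL, and 3 and 9 in OGDR. Peli2, a ubiquitin ligase of the pathway, was higher in untreated shAnxa2 cells (log2 1.43, adjusted p = 4.03e-11). Myd88, the adaptor of the receptor, fell by 0.86 on the log2 scale in shCtrl (adjusted p = 7.76e-13) and rose by 0.79 in shAnxa2 (adjusted p = 1.36e-11). Irak3, an inhibitor of the same step, rose by 1.39 in shCtrl (adjusted p = 1.67e-13) and fell by 0.92 in shAnxa2 (adjusted p = 7.25e-10). All 9 genes of IL-1 maturation were tested, with 3 higher and 2 lower in shCtrl and 1 higher and 4 lower in shAnxa2. Between lines 3 were higher and 3 lower in CTRL, where Nlrp1b was among the lower (log2 -0.90, adjusted p = 0.000134), and 1 and 6 in OGDR. Casp4, an inflammatory caspase, was at 26.2, 59.9, 75.9 and 43.8 CPM, and the sensor Nlrp3 was at 51.1, 37.9, 69.2 and 78.2 CPM. Nlrp3 was 1.04 higher on the log2 scale in shAnxa2 than in shCtrl after OGD/R (adjusted p = 4.57e-12), and Nlrc4 was lower (log2 -0.78, adjusted p = 1.02e-05). The list medians in the 4 comparisons lay between -0.68 and 0.91, both from the 6 other IL-1 ligands and receptors, against medians of all genes within 0.005 of 0.

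**Figure D5:**
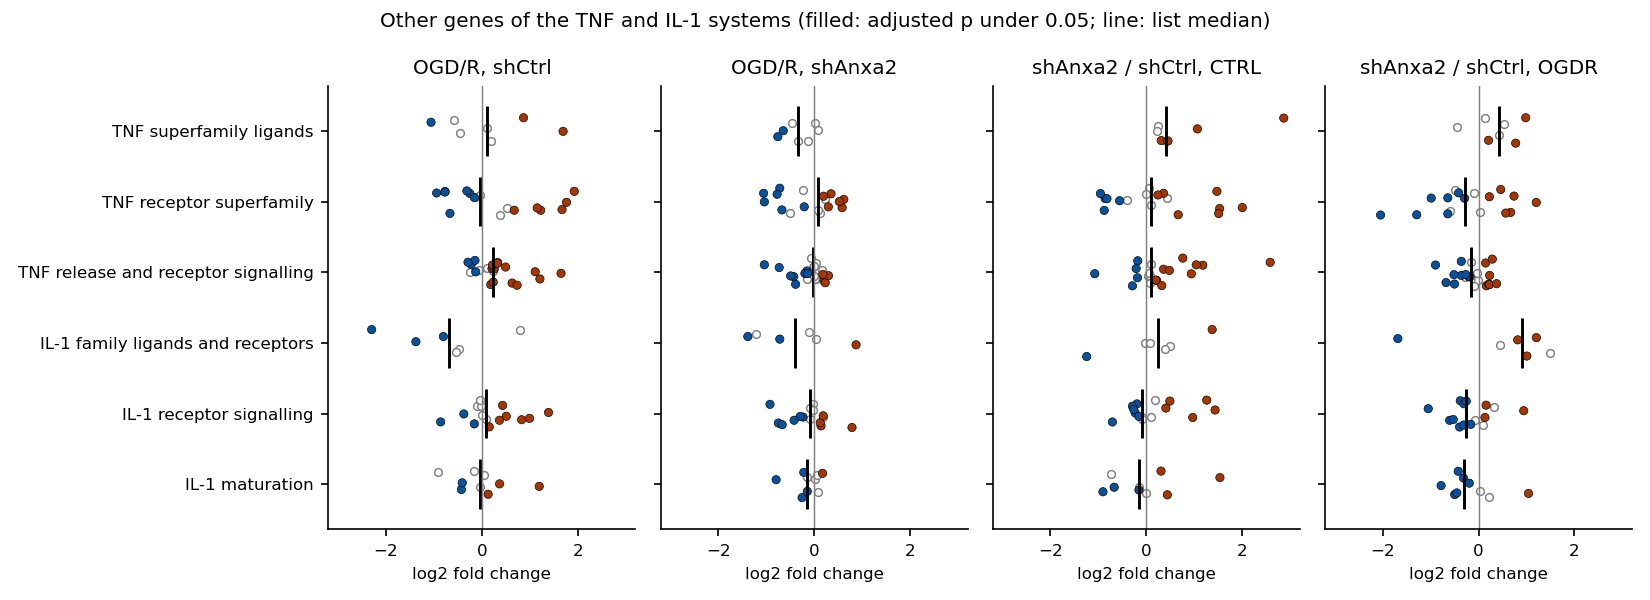
Log2 fold change of each tested gene of the 6 lists in the 4 comparisons, filled where the adjusted p was under 0.05, with a line at the list median. Points lie on both sides of 0 in most lists and panels, and TNF release and receptor signalling has 13 higher and 4 lower genes in the shCtrl panel.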

How the data were processed

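Total RNA of BV2 lines was sequenced in 12 libraries, and the deposited raw counts per gene were used. The authors aligned reads with HISAT2 2.0.4 to mm39, per the labels' processing notes, and the counter and annotation for these cells are not given in the sources used here. The table also held 12 columns of DESeq2-normalised counts, which were not used. Genes with at least 0.5 CPM in at least 3 libraries were kept (11626 genes). Counts were scaled by TMM and fitted in 1 model over the 4 groups with the quasi-likelihood test of edgeR 4.0.16 (R 4.3.3), with Benjamini-Hochberg adjustment over all tested genes. Intervals are 95%. CPM per kb used exon lengths of GENCODE M21. The scripts were tested on simulated data. The members and gene lists were chosen with earlier results of these data known. The text names all 10 members, the largest called change in each direction of each list and comparison (at least 1 CPM on average) and the 5 genes most like Tnf, Il1a and Il1b. The study's methods state 3 biological replicates per group, and p-values measure the spread between these libraries. Replicates differed beyond counting noise (chi-square per gene 3.96 to 12.9), so none was counted as the same library sequenced again. That does not tell separate cultures from wells of 1 culture. The study describes a stable knockdown line and its control cells, so p-values between the lines do not cover the spread among separately made lines. The common biological coefficient of variation was 5.35%. Alternatives were DESeq2 1.42.0, limma 3.58.1 (voom), other size factors, filters, samples and call rule, a replicate block and each library left out. Reads were not analysed here, and intervals cover this counting and fitting only.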

Additional observations from a re-analysis of the deposited data

Results flagged for a closer look

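For 9 of the 10 genes the change after OGD/R differed between the 2 lines by the interaction test (log2, shAnxa2 minus shCtrl). The interaction was 1.11 for Tnf, 0.57 for Tnfrsf1a and -1.07 for Tnfrsf1b. It was -4.01 for Il1a, 1.53 for Il1b and 0.64 for Il1rn. It was -1.21 for Il18, 1.04 for Il18bp and 0.72 for Tnfsf9. The share of all tested genes that passed this test was 70.0%, and 98.6% of the genes called for OGD/R in both lines moved in opposite directions. Causes, an exchange of treatment labels in 1 line among them, were not tested.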

How the results depend on the processing

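When a call needed a 2-fold change and an unadjusted p below 0.05 in place of the adjusted p, members called numbered 2 for OGD/R in shCtrl, 1 for OGD/R in shAnxa2, 1 between lines in CTRL and 5 in OGDR, and genes called among all tested numbered 798, 442, 675, 1183 and, for the interaction, 2523; this rule is stricter by construction. Leaving out 1 library at a time gave 7 to 10, 5 to 7, 7 to 9, 9 to 10 and 9 to 9 members in the same order with the interaction last, and 6807 to 7507, 5774 to 6380, 6342 to 7002, 7414 to 7924 and 7814 to 8004 genes. The fold change of Il1rap for OGD/R in shAnxa2, -0.05 and not called, ran from -0.13 without shAnxa2-CTRL replicate 3 to 0.022 without shAnxa2-CTRL replicate 2. Of 340 member fold changes under other settings, 327 kept direction and side of the threshold, 12 lost the call and 1 gained it; of 600 with 1 library left out, 564 kept both, 32 lost the call, 3 gained it and 1 changed sign. Same-numbered replicates did not deviate together (18 pairs, r from -0.05 to 0.13, 1 over 0.1), so the numbers do not pair the samples; with the replicate block 9, 7, 8, 10 and 9 members were called, and the lost call was Tnfsf9 in shCtrl (-0.34, adjusted p = 0.0564). Another source of gene lengths was planned and not run with RefSeq lengths; the longest coding transcript, added after seeing the data, kept Tnfrsf1b, Tnf and Tnfrsf1a as the 3 highest genes. Scaling moved the median of all genes by under 0.01. Counts of Il1b, Il18 and Il18bp, at most 145 per library, limit their precision.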
